A study of Mus musculus with 12 samples.

Results

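The genes described here encode the proteins of the cytosolic ribosome, 90 of the 20467 protein-coding genes in the deposited tables. A gene was taken when its symbol begins with Rpl or Rps and a digit, and Rpsa, Rplp0, Rplp1, Rplp2 and Fau were added. The longest interval of each gene was used, from 109 transcript intervals. The rule left out 17 symbols that begin the same way, of which 10 are S6 kinases and 7 are pseudogene or noncoding entries. Of the 90 members, 32 encode core proteins of the 40S subunit, 43 core proteins of the 60S subunit and 3 proteins of the ribosomal stalk. Another 11 are paralogs of core genes, and 1, Rps19bp1, encodes a protein that binds Rps19 and is not itself a ribosomal protein.

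The study used mpkCCD cells, an immortalized mouse line of renal collecting duct principal cells, clone 11, at passages 6 to 10. They were grown on permeable supports, with either 0.1 nM dDAVP, an analog of vasopressin selective for the V2 receptor, or its vehicle present throughout, and both groups were harvested 24 h after serum was withdrawn. Chromatin was immunoprecipitated with IgG or with an antibody to Polr2a, the largest RNA polymerase II subunit, in 12 samples that form 4 groups of 3 experiments. The study asked which genes vasopressin regulates at the level of transcription. The 6 IgG libraries are described here, 3 with dDAVP and 3 with vehicle, and the 6 Polr2a libraries were not analysed here. No transgene or deletion is named in the labels, all libraries come from 1 clone, and whether the experiments were separate cultures is not stated. A p-value here therefore reflects the spread between samples that may differ only technically. IgG is the background control of such an experiment: its reads are genomic DNA carried through the procedure, so they measure neither expression nor polymerase, and no marker gene can check the cell type in them.

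A ribosome joins a small 40S subunit, which decodes mRNA, with a large 60S subunit, which forms the peptide bond and holds the exit tunnel, and the acidic stalk of the large subunit recruits translation factors. The genes for these proteins are short, are transcribed strongly in nearly every cell and carry introns that in many cases hold small nucleolar RNAs. Their abundant mRNAs have been copied back into mammalian genomes many times, which leaves processed pseudogenes that resemble the exons and lack the introns. A short read from such an exon can therefore match several places in the genome.

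In the mm10 reference that similarity was confined mostly to exons. Over the members a median of 88.5% of windows of 50 bases, the length of the reads, occurred once in the genome. Over all 20460 protein-coding genes on assembled chromosomes the median was 97.3%, and over 78 mitochondrial ribosomal protein genes it was 97.004%. Within the members' exons the median was 34.2%, and within their introns 100%. A search with each coding sequence found a median of 20 further genomic matches per member, 2208 in all, counting matches of at least 75% identity over at least 80% of the coding sequence. Only Rps19bp1 had none, while 44 members had more than 20. The highest counts were 144 for Rpl7a, 127 for Rpl29, 117 for Rpl21, 99 for Rpl17 and 90 for Rps2. Mitochondrial ribosomal protein genes had a median of 0. Matches of different members of one family can be the same place, so the total is not a number of distinct loci.

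The windows below show how differently the members are repeated. Each is the 50-base coding window of that gene with the most exact copies in the genome, written 5′ to 3′ on the coding strand, read from GRCm38.p6, whose chromosome coordinates are those of mm10. Capitals are not used, since every base of a window is shared by its copies. Rps2, Rpl7a and Rpl29 were chosen for their copy number. Rps6 was chosen because none of its coding windows is unique, which was also so in other members such as Rpl5 and Rpsa. Rpl36, Rpl10l and Rpl32l were chosen because they are among the densest members, and Rps3 as a member with few copies.
Rps2: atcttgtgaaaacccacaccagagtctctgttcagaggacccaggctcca
Rpl7a: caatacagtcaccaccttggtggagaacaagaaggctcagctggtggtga
Rpl29: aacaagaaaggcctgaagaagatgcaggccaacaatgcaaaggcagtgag
Rps6: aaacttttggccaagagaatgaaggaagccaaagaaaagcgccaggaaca
Rpl36: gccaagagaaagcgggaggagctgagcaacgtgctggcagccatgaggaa
Rpl32l: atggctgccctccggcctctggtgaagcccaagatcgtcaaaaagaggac
Rpl10l: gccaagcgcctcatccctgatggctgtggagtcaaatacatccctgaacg
Rps3: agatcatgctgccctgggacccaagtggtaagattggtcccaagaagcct

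The Rps2 window, at chr17:24721816-24721865 on the plus strand, occurred 37 times in the genome, its own place included. Rpl7a's window, at chr2:26912370-26912419 (plus strand), occurred 46 times, and that of Rpl29, at chr9:106431114-106431163 (plus strand), 33 times. The Rps6 window, at chr4:86854772-86854821 (minus strand), occurred 12 times. Rpl36's, at chr17:56614142-56614191 (plus strand), occurred 8 times. The single-exon Rpl32l had 5 copies of its window at chr10:20208490-20208539 (plus strand). Rpl10l, also single-exon, had 2 of its window at chr12:66283750-66283799 (minus strand). Rps3 likewise had 2, at chr7:99479400-99479449 (minus strand). By coding windows found once, Rps3 and Rpl10l were at the other end from these repeated genes: 87.96% and 87.58% of their windows were unique, against 16.01% for Rps2, 10.99% for Rpl7a, 2.92% for Rpl36 and 0.0% for Rps6.

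**Figure D1:**
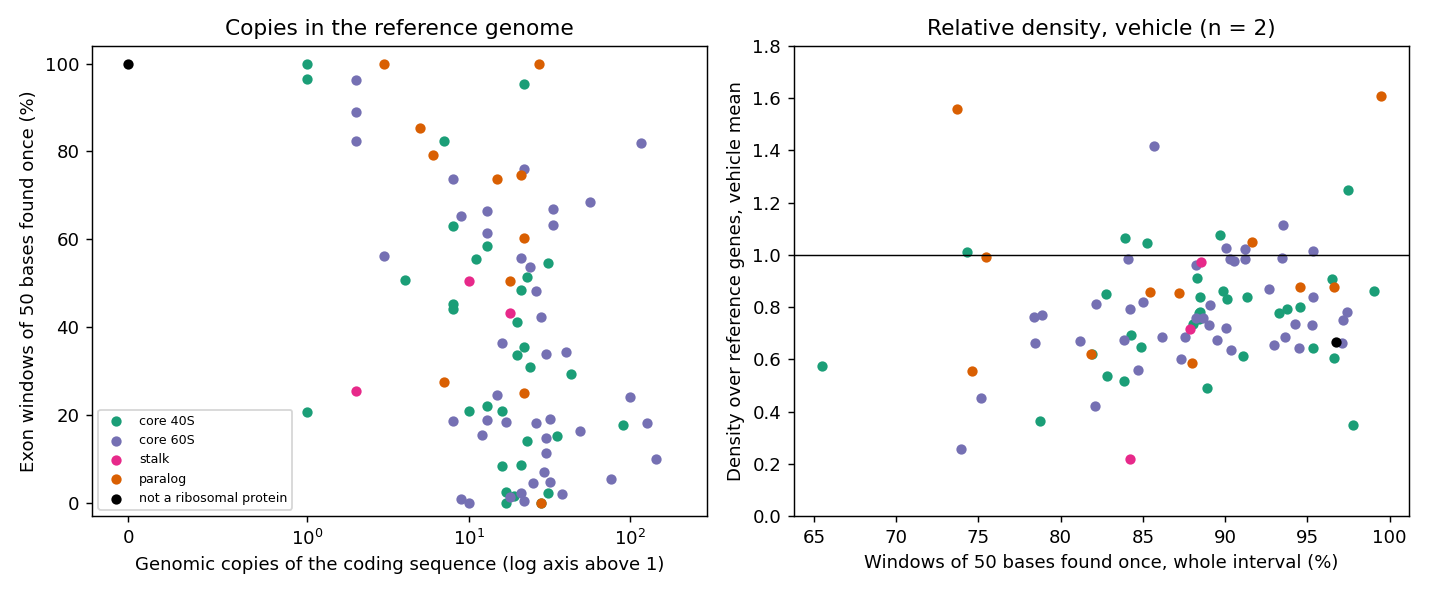
Left, share of exon windows of 50 bases found once in the genome (percent) against genomic matches of the coding sequence (log axis above 1), 1 point per member, coloured by role. Right, vehicle mean (n = 2 samples) of density over reference genes against the share of windows found once in the whole interval (percent). Rps19bp1 has 0 matches, Rpl7a has 144, and most members lie below the line at 1 on the right.

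The members lay on 20 chromosomes, with 14 on chromosome 7 and 8 on chromosome 17. Intervals run from transcript start to transcript end, introns included, and were 0.592 to 16.8 kb long (median 3.02 kb). Of the 90 intervals, 14 overlapped another gene and 22 held snoRNA intervals, 32 in total, and reads of overlapping genes cannot be told apart. Rps27rt has the interval of Rps27 in these tables (chr3:90212667-90213647), although the reference gene table places it on chromosome 9, at 114982366 to 114982739. Both genes therefore have the same reads, and the 90 members have 89 distinct intervals. A member held 21 to 631 reads over the 6 libraries, with a median of 104.5. Rps21 and Rps20 were at the low end, with 21 and 23, and the long paralog gene Rps23rg1 was at the high end.

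Libraries held 10588927 to 19748658 reads over 33062 intervals. Counts of experiments 1 and 2 differed by no more than sampling noise within either group (chi-square over degrees of freedom 1.02 for dDAVP and 1.01 for vehicle), so each such pair was treated as a single sample and n is 2 in either group. Where values of 3 libraries follow one another, they are in the order of experiments 1, 2 and 3. dDAVP experiment 3 stood apart from every other library, at ratios of 85.3 to 148.0, and the bases of the members covered per read were 22.3 there against 33.6 to 41.0 in the other libraries. Over 19952 other genes, log2 read density followed GC content at r = 0.76 in that library and at r = −0.47 to −0.09 in the other 5. The log2 ratio of dDAVP to vehicle followed GC content at r = 0.90 over these genes, and at 0.55 when that library was left out.

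Density is given relative to the members' surroundings. The reads per kb of a member were divided by the median reads per kb of the other protein-coding genes on its chromosome with 0.5 to 2 times its length, 28 to 674 genes per member, so that 1 is the level of comparable genes in the same library. Ribosomal protein genes lay below that level in every library. In the dDAVP libraries their median was 0.759, 0.799 and 0.523. In the vehicle libraries it was 0.744, 0.762 and 0.801. Of the 6 libraries, 5 were close to one another and dDAVP experiment 3 was lower. With experiments 1 and 2 averaged gene by gene, the dDAVP median was 0.653 ± 0.183 and the vehicle median 0.799 ± 0.003 (SD, n = 2 each). The libraries of the 2 groups overlapped, since dDAVP experiments 1 and 2 lay beside vehicle.

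Counted gene by gene, 80 of the 90 members had a mean relative density below 1, or 88.9%, where 43.5% of all protein-coding genes did. There were 83 without dDAVP experiment 3, or 92.2%, against 49.5% of all genes. Rpl18, at 0.976, was just inside that limit, and Rpl3l, at 1.05, outside it. In all 6 libraries 25 members were below the level of their reference genes, or 27.8%, against 10.8% of all protein-coding genes and 13.2% of the genes of similar length. Above it in all 6 were 0 members, where 10.7% of all genes and 8.9% of genes of similar length were. The limit was close for Rpl13, whose highest library stood at 0.997, and for Rpl10a, whose highest stood at 1.01. In the 5 libraries without dDAVP experiment 3, 37 members were below in each, or 41.1%, against 23.6% of all genes. Since these genes were picked with their low density already known, the counts describe these libraries and carry no test.

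**Figure D2:**
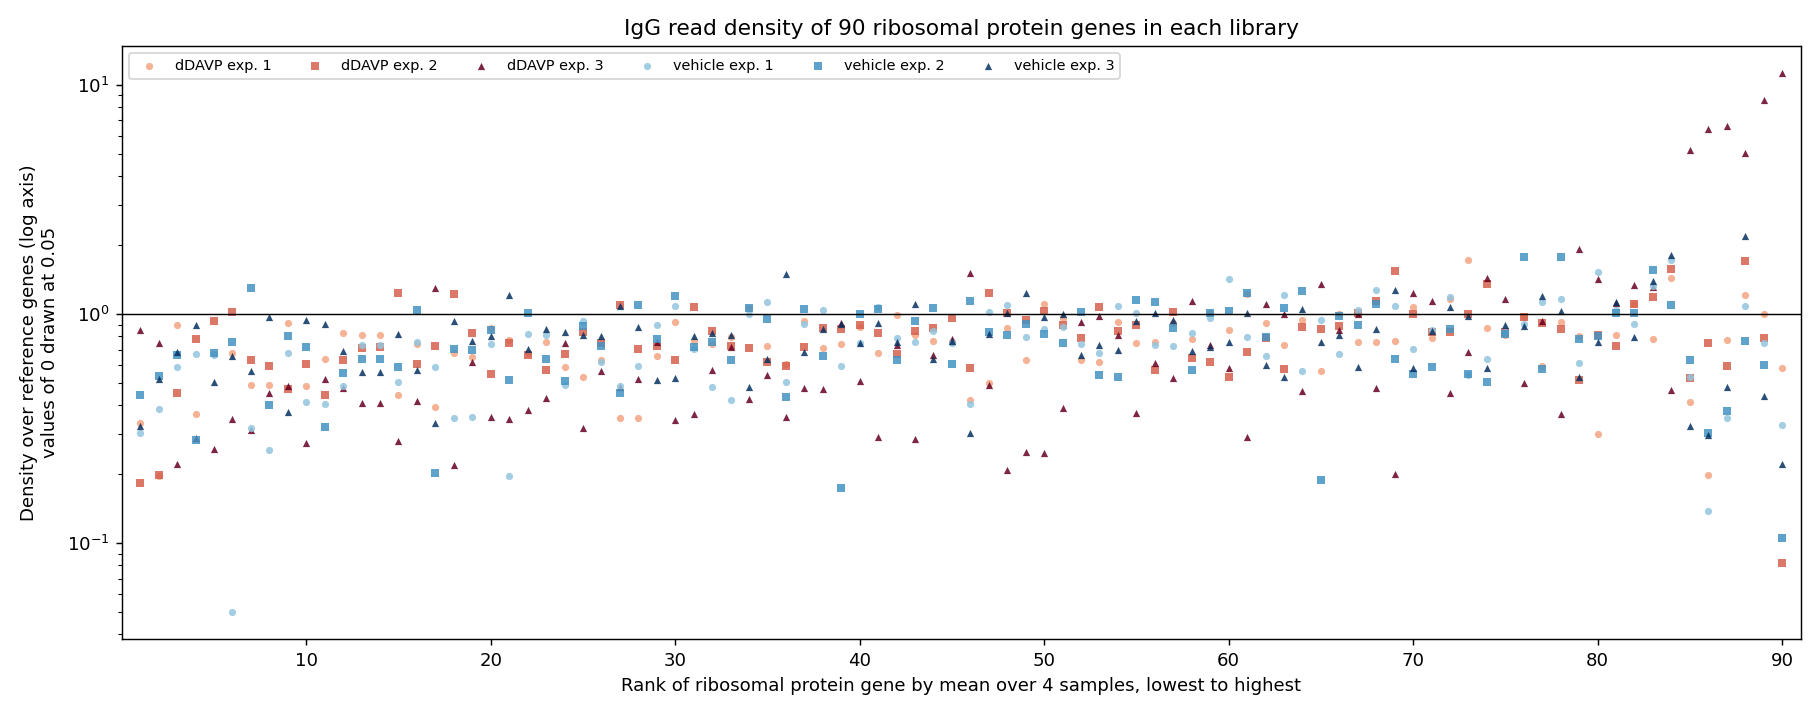
Density over reference genes (log axis, ratio) of each of the 90 members in each of the 6 IgG libraries, members ranked by their mean over 4 samples from lowest to highest and libraries shown by colour and symbol. Most points lie below the line at 1, and the points of dDAVP experiment 3 leave the others at the right, where Rplp1, the last rank, reaches 11.3.

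Summing the reads gave a more precise value than single members allow. The 90 members held 1856, 1831 and 3260 reads with dDAVP. The vehicle libraries held 1523, 1430 and 2280. Over the reads expected from the reference densities, this was 0.804 (95% exact Poisson interval 0.767 to 0.841), 0.833 (0.795 to 0.872) and 0.690 (0.667 to 0.714) with dDAVP. With vehicle it was 0.833 (0.791 to 0.875), 0.821 (0.779 to 0.864) and 0.824 (0.790 to 0.858). All 6 intervals ended below 1, they cover counting error only, and reads may include copies of one molecule. The intervals of 5 libraries overlapped one another, and that of dDAVP experiment 3 lay below all of them. The dDAVP group stood at 0.754 ± 0.091 and the vehicle group at 0.825 ± 0.002 (SD, n = 2).

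How low the members stood depended on the genes they were compared with, and in each case below the members stayed below 1. Against genes of similar length and GC content on any chromosome the dDAVP sum was 0.757 ± 0.037 and the vehicle sum 0.775 ± 0.021 (SD, n = 2). Against the 20 nearest genes it was 0.813 ± 0.015 and 0.802 ± 0.015. In dDAVP experiment 3 it rose from 0.690 to 0.730 with GC matching and to 0.803 with the nearest genes, close to the other libraries. Counted per kb of windows found once, for members and reference genes alike, the sum was 0.791 ± 0.108 and 0.872 ± 0.001 (SD, n = 2). By that measure the vehicle value was nearer to 1. All reads of an interval were counted in it, those over repeated windows included. It therefore does not measure the part of repeated sequence in the members' level, which was not tested.

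**Figure D3:**
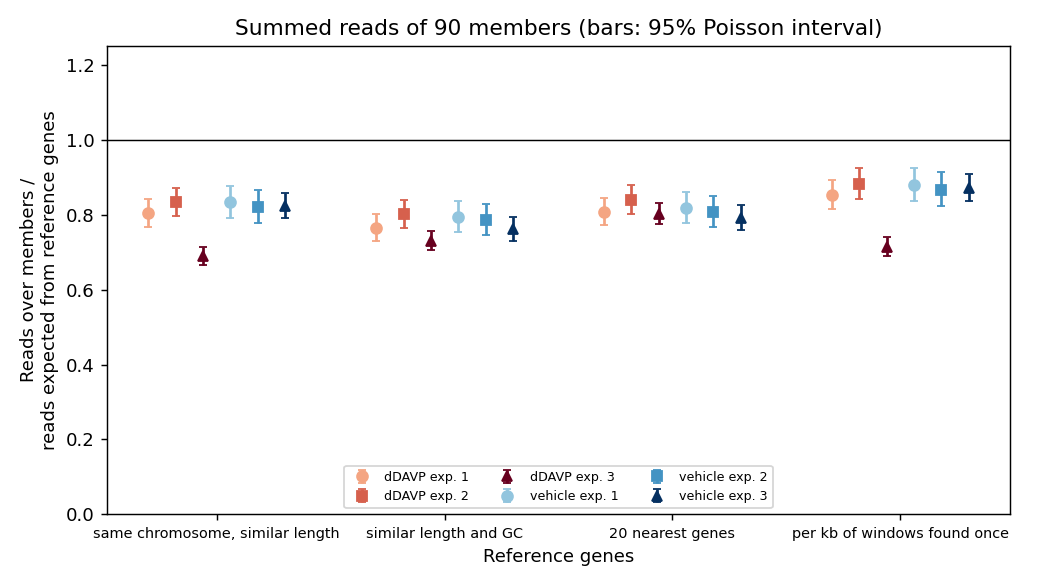
Summed reads of the 90 members over the reads expected from 4 kinds of reference genes (ratio), 1 point per IgG library, with bars for the exact 95% Poisson interval. Every point and bar lies below the line at 1, and dDAVP experiment 3 is the lowest point for the chromosome and length reference, at 0.690.

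Repeated sequence and relative density did not go together in a simple way across members. The correlation of relative density with the share of windows found once was r = 0.11, −0.12 and −0.39 in the dDAVP libraries and 0.16, 0.25 and 0.10 in the vehicle libraries (90 members, which share libraries, depth and base composition). With the number of coding matches it was between −0.14 and 0.13 in the 6 libraries. Median relative density of the 48 members with 75 to 90% unique windows was 0.749, of the 22 members with 90 to 95% 0.773 and of the 13 members with 95 to 99% 0.782. The 5 members with 50 to 75% stood at 1.85, and at 0.755 without dDAVP experiment 3, whose median in this class was 5.03. Without that library the 3 classes in between had 0.751, 0.822 and 0.783. Only 2 members had 99% or more, Rps3 (99.05% unique windows and 1 match) at 0.680 and Rpl39l (99.46%) at 1.30. Among the other genes, 260 with under 5% unique windows still had a median relative density of 1.05 to 1.09 in the 5 libraries other than dDAVP experiment 3, where it was 0.526. The files thus hold reads over repeated windows. The part of repeated sequence in the members' level was not tested beyond these values.

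Small-subunit genes had median relative densities of 0.612 ± 0.193 in the dDAVP group and 0.755 ± 0.073 in the vehicle group (SD, n = 2), and 9 of 32 were below their reference genes in all 6 libraries. The dDAVP median was 0.748 without experiment 3. Rps21, a small 40S protein, was the lowest member. Its interval at chr2:180257379-180258444 held 4, 2 and 1 reads with dDAVP and 3, 4 and 7 with vehicle. Relative density was 0.335, 0.183 and 0.854 with dDAVP and 0.304, 0.442 and 0.323 with vehicle. The single read of dDAVP experiment 3 gave the highest of these 6 ratios, as a ratio also depends on how many reads the reference genes held. All 6 libraries were below 1 and the groups overlapped. A mean below 0.5, as in Rps21 at 0.452, was found in 0.582% of all genes, and Rpl30 lay outside that limit at 0.551.

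Rps2, a protein near the mRNA entry of the 40S subunit, has the lowest share of unique windows of all members, 65.5%, and 90 coding matches. Its interval at chr17:24720063-24721927 held 15, 21 and 52 reads with dDAVP and 8, 6 and 10 with vehicle. Its relative density was 0.869, 1.36 and 1.43 with dDAVP and 0.639, 0.505 and 0.579 with vehicle. The groups did not overlap. Such a separation was common: the relative densities of the dDAVP libraries all lay above those of vehicle in 13.1% of all protein-coding genes and all below them in 12.3%, and each direction held 5 of the 90 members. Those above are Rps2, Rpl28, Rpl32l, Rpl3l and Rpl6, named after their values were seen. Rps6, the substrate of the S6 kinases, has 74.3% unique windows and 43 coding matches. It had 0.750, 0.896 and 0.369 with dDAVP and 1.01, 1.16 and 0.934 with vehicle, at 12 to 17 reads per library. Here too the groups did not overlap, in the opposite direction to Rps2. In RPKM they did, at 0.274 to 0.335 with dDAVP and 0.263 to 0.376 with vehicle, and the log2 ratio of dDAVP to vehicle was −0.20 ± 0.71 (SE).

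Rps15, in the head of the 40S subunit, had 0.801, 0.513 and 1.93 with dDAVP and 0.610, 0.779 and 0.531 with vehicle. Rpsa, which is also known as the laminin receptor, had 0.780, 0.641 and 1.14 with dDAVP and 0.828, 0.568 and 0.691 with vehicle. In both genes dDAVP experiment 3 was the highest library and the rest overlapped. Fau on chromosome 19, whose product joins a ubiquitin-like part to the S30 protein, had 0.423, 0.581 and 1.51 with dDAVP and 0.405, 1.14 and 0.303 with vehicle. Its vehicle experiments 1 and 2 differed though they come from libraries that agree within sampling noise over all genes, and they rest on 7 and 18 reads. Rps20, with 4, 6 and 6 reads with dDAVP and 0, 3 and 4 with vehicle, was the only member with a count of 0 in any library.

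Large-subunit and stalk genes had median relative densities of 0.686 ± 0.154 in the dDAVP group and 0.763 ± 0.054 in the vehicle group (SD, n = 2), and 13 of 46 were below their reference genes in all 6 libraries. Leaving out dDAVP experiment 3 gave a dDAVP median of 0.795. Rpl30 and Rpl23a were the lowest of them. Rpl30 (chr15:34440508-34443276) had 0.894, 0.451 and 0.222 with dDAVP and 0.590, 0.663 and 0.685 with vehicle, from 11 to 22 reads. Rpl23a, at the mouth of the exit tunnel (chr11:78180936-78183584), had 0.365, 0.778 and 0.287 with dDAVP and 0.670, 0.281 and 0.894 with vehicle, from 4 to 19 reads. The groups overlapped in both. Rpl3, a core protein near the peptidyl transferase centre, had 0.755, 0.568 and 0.431 with dDAVP and 0.810, 0.638 and 0.862 with vehicle, below 1 in all 6.

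At the stalk, Rplp0, the base to which the acidic proteins bind, was steady at 0.757, 0.962 and 0.777 with dDAVP and 0.745, 0.606 and 0.761 with vehicle. Rplp2 had 0.754, 0.571 and 0.609 with dDAVP and 0.733, 1.13 and 1.01 with vehicle. Rplp1, its partner, was the member with the highest mean, 3.01, and 1 library made it so. Its 1.23 kb interval at chr9:61913283-61914510 held 7, 1 and 44 reads with dDAVP and 3, 1 and 5 with vehicle. Relative density was 0.583, 0.0823 and 11.3 with dDAVP and 0.328, 0.105 and 0.222 with vehicle. Without dDAVP experiment 3 every library placed it below its reference genes, and against genes of similar length and GC content its mean was 0.639.

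The other dense members were short as well. Rpl28 had 0.773, 0.591 and 6.62 with dDAVP and 0.353, 0.378 and 0.481 with vehicle. Rpl36, the most GC-rich member at 63.7%, had 0.198, 0.746 and 6.39 with dDAVP and 0.138, 0.302 and 0.296 with vehicle. Rpl41, which encodes a very small basic protein, had 0.414, 0.527 and 5.18 with dDAVP and 0.532, 0.633 and 0.325 with vehicle. In all 3 genes, 5 libraries were below 1 and dDAVP experiment 3 was far above. Their reference genes had lower GC content: for Rpl36 the median was 45.9%, and for Rpl28 it was 46.0% against 56.2% in the gene. With length and GC matched, the means fell from 1.85 to 0.996 for Rpl36, from 2.04 to 0.654 for Rpl28 and from 1.64 to 0.965 for Rpl41. Other members with GC-poorer reference genes differed. Rps15, at 59.0% GC against 46.9%, rose from 0.953 to 1.41, and Rps21, at 53.5% against 42.0%, went from 0.452 to 0.422. The part of GC content in these means was not tested. The 6 members with a mean above 1.5 are Rplp1, Rpl28, Rpl36, Rpl41, Rpl10l and Rpl32l, against 5.89% of all genes, and the next below was Rpl39l at 1.30.

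The paralogs had median relative densities of 0.670 ± 0.278 in the dDAVP group and 0.894 ± 0.047 in the vehicle group (SD, n = 2), and 2 of 11 were below the reference in all 6 libraries. The dDAVP median was 0.867 without experiment 3. Rpl10l, an intronless paralog of Rpl10 on chromosome 12 known for its expression in testis, had 1.21, 1.70 and 5.03 with dDAVP and 1.09, 0.765 and 2.19 with vehicle. It rested on 13, 17 and 107 reads with dDAVP and 9, 6 and 23 with vehicle. It was above 1 in 5 libraries and stayed high with GC matching (2.29). Rpl32l, the other single-exon member and the shortest, had 0.998, 0.785 and 8.63 with dDAVP and 0.749, 0.602 and 0.437 with vehicle. It was above 1 only in dDAVP experiment 3, with 18 reads there and 4 to 9 in the others. With length and GC matched the mean of Rpl32l also stayed high, at 2.46.

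Rpl39l and Rpl3l, paralogs known from testis and from muscle, have exons without repeated windows (100% unique). Rpl39l had 1.43, 1.57 and 0.468 with dDAVP and 1.72, 1.097 and 1.81 with vehicle, above 1 in every library but dDAVP experiment 3. Rpl3l had 1.11, 1.11 and 1.34 with dDAVP and 0.908, 1.01 and 0.793 with vehicle, where the groups did not overlap. Rpl22l1, the paralog of Rpl22, was among the 5 lowest members, with 0.670, 0.929 and 0.257 against 0.660, 0.675 and 0.504. The remaining paralogs Rpl36al, Rpl37rt, Rpl7l1, Rps23rg1 and Rps27l had means of 0.743 to 0.925, and Rps27rt shares the reads of Rps27. Rps19bp1, without coding matches, had 0.796, 0.729 and 0.719 with dDAVP and 0.423, 0.630 and 0.808 with vehicle, and its mean of 0.704 was below the members' median of 0.770.

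The 4 members on the X chromosome had means of 0.562 to 0.892 against X-linked reference genes, a range within that of the other members. Rps4x had 0.760, 1.54 and 0.201 with dDAVP and 1.08, 0.634 and 1.27 with vehicle, from 8, 16 and 2 reads and from 9, 5 and 18. Rpl10, which joins the subunits late in assembly, had 1.72, 0.998 and 0.685 with dDAVP and 0.542, 0.550 and 0.979 with vehicle. Rpl36a and Rpl39 had means of 0.658 and 0.562. Each of the 4 genes had libraries on both sides of 1, from at most 18 reads per library. On chromosome 12, Rps7, Rps29 and Rpl36al had means of 0.768, 0.582 and 0.756, so Rpl10l was the only 1 of its 4 members above the reference.

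By median relative density, the gene groups below lay nearer to 1 than the members, except the last of them in the vehicle group. Median relative density was 0.820 ± 0.119 in the dDAVP group and 0.953 ± 0.006 in the vehicle group for 78 mitochondrial ribosomal protein genes. It was 0.701 ± 0.231 and 0.936 ± 0.007 for 39 translation factor genes and 0.916 ± 0.080 and 0.942 ± 0.026 for 56 genes of ribosome biogenesis. The last group held 28 genes outside the ribosome that are known for many processed pseudogenes, such as Actg1 and Ubb. They had 0.765 ± 0.107 and 0.743 ± 0.057 (SD, n = 2 throughout). The members had 0.653 and 0.799, so this group lay nearer to 1 with dDAVP and further from 1 with vehicle. The dDAVP medians of these 4 groups were 0.904, 0.864, 0.973 and 0.841 without experiment 3, against 0.782 for the members. Below their reference in all 6 libraries were 17 of 78, 10 of 39, 7 of 56 and 10 of 28 of these groups. These are 21.8%, 25.6%, 12.5% and 35.7%, against 27.8% of the members and 10.8% of all protein-coding genes. By this count the mitochondrial ribosomal and translation factor genes were closer to the members than to all genes. Median GC content was 46.3%, 46.1%, 46.1% and 49.9% for these groups and 48.98% for the members, and these lists were compared as descriptions only.

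**Figure D4:**
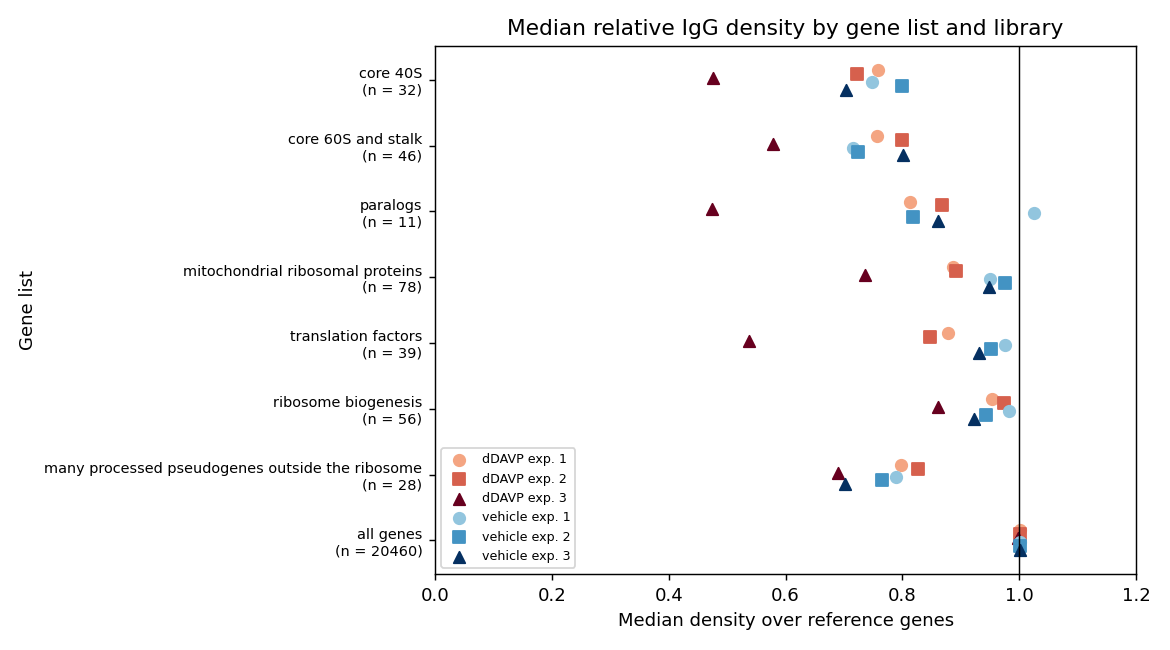
Median density over reference genes (ratio) of each gene list in each of the 6 IgG libraries, with the number of genes in parentheses. Core 40S and 60S genes and the pseudogene-rich genes lie left of the mitochondrial ribosomal, translation factor and biogenesis genes in the 3 vehicle libraries, and dDAVP experiment 3 is leftmost for each list.

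The comparison of dDAVP with vehicle asks whether the background over these genes changed with the hormone analog, which would bear on any Polr2a signal read against it. No ribosomal protein gene passed the test. At an adjusted p of 0.05, 0 of the 82 members tested and 0% of all 30912 intervals were called by edgeR's quasi-likelihood test. The members' adjusted p ran from 0.619 to 0.995. DESeq2 called 0 too. At an unadjusted p under 0.05 edgeR had 1 member, against 236 intervals or 0.763% of all tested, and DESeq2 had 4 members, against 1082 of 32956 intervals or 3.28%. On simulated data the test recovered 0 of 67 increases of 2-fold, 36 of 67 of 4-fold and 63 of 66 of 8-fold. Changes of about 2-fold were therefore not detectable in a comparison of this size. Only increases were simulated, and only in intervals above a minimum expected depth that most members did not reach. Recovery at the depth of a typical member was not simulated. The other 8 members missed the count filter, with 21 to 61 reads, among them Rps21, Rps20, Rpl39, Rpl36a, Rpl10, Rpl36 and Rplp1. Rps16 passed with 38, as the filter asks for a minimum count, scaled to library size, in at least 2 samples, besides a minimum total.

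In direction, 60 of 82 members were higher with dDAVP and 22 lower, or 73.2% higher against 50.4% of all intervals. Genes of the length of the middle 50% of members, with members of that length included, were higher in 77.9%. The share among members was thus near that of short genes in general. The median log2 ratio was 0.32 over members, 0.0093 over all intervals and 0.75 over those short genes. Without dDAVP experiment 3 it was 0.12 over 85 members, of which 56 were higher (65.9% against 49.8% of all intervals). Short genes had 64.9% higher then, and a median of 0.15. With a GC offset the members' median was −0.12, with 32 higher and 50 lower, or 39.02% higher against 58.8% of all intervals. The direction of the group thus turned with the treatment of GC content.

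GC content ran with the ratio within the members as well. Over 82 members the log2 ratio followed GC at r = 0.70, without dDAVP experiment 3 at 0.19 over 85 and with the GC offset at −0.10. Of 23 members under 47% GC, 11 were higher, with a median of −0.16. Of 26 between 47 and 50%, 17 were higher (0.20), of 18 between 50 and 53%, 17 (0.80), and of 15 at 53% or more, 15 (1.07). Without dDAVP experiment 3 the medians of the 4 classes were 0.05, 0.04, 0.26 and 0.36.

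**Figure D5:**
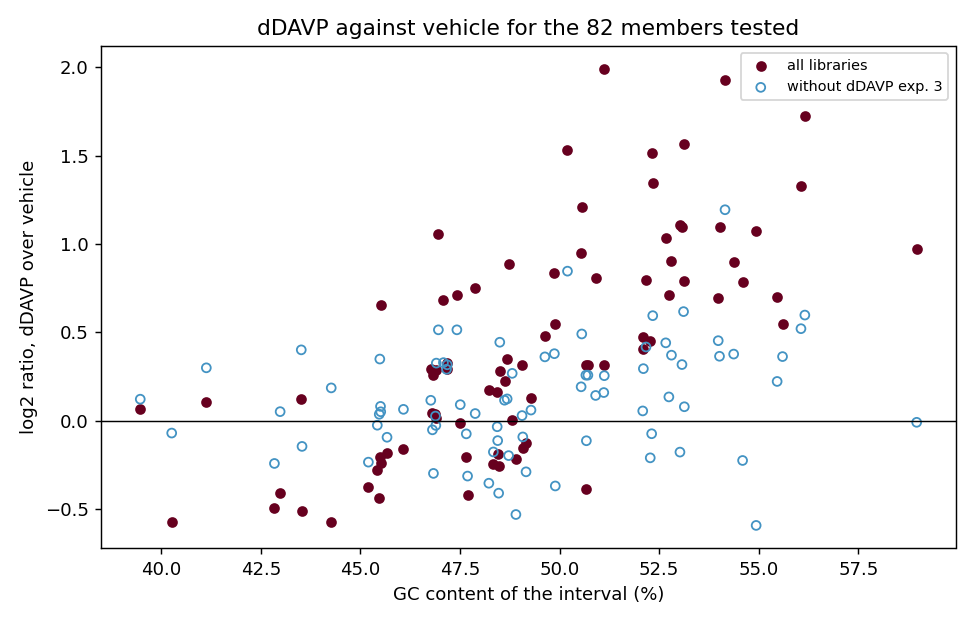
Log2 ratio of dDAVP to vehicle against GC content of the interval (percent), 1 point per member tested, for all libraries (filled) and without dDAVP experiment 3 (open). Filled points rise from −0.57 for Rpl39l at 40.3% GC to about 1 or more in many GC-rich members, and open points stay nearer to 0.

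Rps2 was the member with an unadjusted p under 0.05. Its log2 ratio was 1.93 ± 0.75 (SE), its 95% interval ran from 0.06 to 3.79, and its adjusted p in edgeR's test was 0.619. It was 1.19 without dDAVP experiment 3 and 0.89 with the GC offset. It was higher in 3 of 3 dDAVP libraries than in any vehicle library. Rpl6, Rpl3l, Rpl10l and Rpl8 came next, with log2 ratios of 1.53, 1.21, 1.99 and 1.57, each with a 95% interval that included 0. Rpl6, a 60S protein, had relative densities of 1.07, 1.00 and 1.24 with dDAVP and 0.706, 0.547 and 0.580 with vehicle, without overlap, and Rpl8, near the peptidyl transferase centre, had 0.917, 0.789 and 1.105 and 0.658, 0.796 and 0.602, with overlap. Without dDAVP experiment 3 the log2 ratio was smaller in all 4, at 0.26 for Rpl10l, 0.85 for Rpl6, 0.62 for Rpl8 and 0.49 for Rpl3l.

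The members named for a lower ratio are Rpl39l (−0.57), Rpl5 (−0.51), Rpl24 (−0.49) and Rpl4 (−0.41), and none was near the threshold (edgeR adjusted p 0.625 to 0.721). Rpl5 binds the 5S ribosomal RNA and Rpl4 lines the exit tunnel. Their standard errors were 0.53 to 0.64 and each 95% interval included 0. Without dDAVP experiment 3 the ratios were −0.07, −0.14, −0.24 and 0.05, so that of Rpl4 changed sign. The X-linked Rps4x had −0.57 ± 1.06 (SE) and 0.19 without dDAVP experiment 3. Each of these members is lower in GC content than Rps2 (54.2%), at 40.3 to 44.3%.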

How the data were processed

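The authors mapped reads of 50 bases with BWA to the mm10 build, per the labels' protocols. SAMtools and bedtools also appear in the submitters' processing notes. The deposited counts give the reads overlapping each RefSeq transcript interval, introns included. The deposited files also give the covered bases and the covered fraction, of which the covered bases were used only to give bases covered per read. A duplicate or mapping-quality filter is not given in the sources used here. Chromatin was sheared to about 300 bp. Symbols for 32763 of 33062 intervals (99.1%) came from the RefSeq table and GENCODE of GRCm38.p6.

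The members and lists were chosen with earlier results of these data known. Named were the extremes by density, by p and by unique windows, genes on chromosomes 12, 19 and X, paralogs, members missing the filter and a short list of known proteins. Counts went to edgeR 4.0.16 (TMM, filterByExpr, two-sided quasi-likelihood test, Benjamini-Hochberg over 30912 intervals, R 4.3.3), with DESeq2 1.42.0 as alternative and experiments 1 and 2 summed. Relative density used Python 3.11.15 and carries no test. Where fewer than 20 reference genes existed, lengths of 0.25 to 4 times were taken. Coding matches came from BLAST+ 2.17.0 (word size 16). Total counts were 13403860, 12771289 and 12632322 for dDAVP and 11185306, 10588927 and 19748658 for vehicle, in the order of experiments. The test was checked on simulated data with 200 changed intervals, which gave 5 false calls. Samples were not paired by experiment number. The values of some members are included in counts and medians but are not reported here by name.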

Additional observations from a re-analysis of the deposited data

How the results depend on the processing

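Under the alternatives, 84 values behind the main comparisons stayed within set limits and 16 moved beyond them. None of the latter took a density to 1 or above. The limit was the spread between samples for densities, sums and log2 ratios. It was a fixed fold for counts of members and a counting interval for the unique share. Some of the 84 could not move, such as dDAVP values with a vehicle library left out. They include the members' median log2 ratio with the GC offset, −0.12 against 0.32, as the spread was 0.69. The dDAVP median of relative density was 0.843 against genes of the same chromosome and any length. The vehicle median of 0.799 became 0.715 there, 0.773 against genes of similar length on all chromosomes, 0.753 with length and GC matched, 0.823 per kb of unique windows, 0.805 without overlapping members and 0.759 for core proteins. Leaving out one library at a time gave 0.641 to 0.782 with dDAVP and 0.773 to 0.799 with vehicle. Members below the reference in every library numbered 25 in the report, 39 with length and GC matched, 18 per kb of unique windows, 18 without overlapping members, 22 for core proteins and 24 to 35 under the other choices of genes, and 26 to 37 with one library left out, where fewer libraries have to meet the condition. The summed vehicle ratio of 0.825 became 0.775 with length and GC matched, 0.872 per kb of unique windows, 0.829 without overlapping members and 0.822 to 0.828 with one library left out (0.747 to 0.818 with dDAVP). With windows of 36 bases the median unique share was 84.5%. Of the 82 members' log2 ratios, 20 changed sign without dDAVP experiment 3 and 30 with the GC offset, where their median became −0.12. Among the members named by p, the reversed ratios were those of Rpl39l with the GC offset (0.10) and with the GC offset and replicate block (0.11), and of Rpl4 without dDAVP experiment 3. With one library left out, Rpl4 ranged from −0.757 to 0.0527. The cause was not tested.

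Samples with the same experiment number deviated in opposite directions (correlations −0.37, −0.39 and −0.59). Within either group the libraries other than experiment 3 agreed within sampling noise, so these correlations are not separate evidence. Read density on a log scale followed GC content at r = 0.76 in dDAVP experiment 3 and at r = −0.47 in vehicle experiment 3. The correlations therefore cannot show whether samples with the same number were prepared together, which was not tested. With experiment number as a replicate block, edgeR called 0 intervals and 0 members, 210 intervals had an unadjusted p under 0.05 and the members' median log2 ratio was 0.38. A crossed pairing, chosen after seeing the data, called 0 of 30912 intervals. The values of gene lists and classes of unique windows without dDAVP experiment 3 were also chosen after seeing the data. Depth limits single members: the median member held 11 to 30 reads per library.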
